A study of Mus musculus with 72 samples.

Results

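The 33 genes described here encode the proteins that use ketone bodies, carry fatty acids into mitochondria and oxidise them, together with the transporters and PPAR-responsive genes of the same fuel supply. They were chosen by gene symbol, matched to the Ensembl identifiers of the deposited table, and all 33 were found among its 35275 genes. The 72 libraries were made by mRNA sequencing of C57BL/6 mouse brain at 7 months of age. In the stroke groups the middle cerebral artery was blocked for 1 h in a single hemisphere, and the tissue sequenced was a mid-coronal slice of the cerebrum of that hemisphere. Besides sham, tissue was taken at the end of the 1 h block (ischemia alone) or after reperfusion for 3, 12, 24 or 72 h. All stages were studied under each of 4 feeding regimens: fasting every other day, with 24 h without food and then 24 h with food (EOD), daily fasting of 16 h (IF16) or 12 h (IF12), and food at all times (AL). Daily fasting lasted 4 months, and the labels give no duration for EOD. Each of the 24 groups has 3 libraries, and since the labels do not name separate animals, the p-values reflect only how far these samples vary, and that variation may be technical.

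Ketone bodies are made mainly in the liver during fasting and reach the brain through monocarboxylate transporters. Inside brain mitochondria Bdh1 oxidises β-hydroxybutyrate to acetoacetate, Oxct1 activates acetoacetate with coenzyme A and Acat1 splits the product into acetyl-CoA. Fatty acids enter mitochondria as carnitine esters and are shortened in rounds of dehydrogenation, hydration, a further dehydrogenation and thiolysis. In the brain these steps are known mainly from astrocytes, while neurons rely mostly on glucose, lactate and ketone bodies. The nuclear receptor Ppara, bound by fatty acids, turns on many of these genes in liver and heart during fasting.

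Library totals ran from 16735707 to 24763161 counts and the mitochondrial share from 1.87 to 4.98%. Several marker lists for the cells such a section could hold moved with stage. All 8 markers of medium spiny neurons, the main neurons of the striatum, were lower than in sham at 12, 24 and 72 h, and their summed level was 195.4 to 868.4 CPM (counts scaled to library size) at 24 h, against 604.3 to 2758 CPM in sham. All 7 reactive astrocyte markers were higher at 12, 24 and 72 h, with sums of 1211 to 3304 CPM at 24 h and 411.1 to 8304 CPM at 72 h, against 154.4 to 390.2 CPM in sham. Of 7 markers of activated myeloid cells 2 were higher at 3 h, 5 at 12 h and 6 at 24 and at 72 h, with 1 lower at 12 and at 24 h. Their summed level was 1557 to 2852 CPM at 24 h and 2118 to 4189 CPM at 72 h, against 2230 to 3275 CPM in sham. The sum at 24 h did not follow the list, whose median log2 fold change was 2.58. Here and below, this sum need not stand for most of its markers. No list had a marker at 0 in every library, and the adipocyte markers summed to at most 0.721 CPM. Some lists spread widely within a stage. Choroid plexus markers summed to 33.01 to 3620 CPM in sham and 898.6 to 10010 CPM at 72 h, and hippocampus markers to 35.0 to 202.5 CPM in sham. Whether the sections differed in position was not tested. In bulk tissue, fewer cells of a type and less RNA per cell cannot be told apart, and this holds for every value below.

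In sham brain Oxct1 and Acat1, enzymes of ketone use, were among the members with the highest levels per gene length. Oxct1 had the highest level, 159 ± 9.95 FPKM (fragments scaled to gene length and library size, SD, n = 12), at the 98.2nd percentile of all genes in the table. Acat1 had 55.1 ± 4.32 FPKM and Bdh1 30.7 ± 2.95 FPKM. Below Oxct1 stood Etfb, a subunit of the flavoprotein that takes electrons from the acyl-CoA dehydrogenases, at 71.6 ± 17.2 FPKM. The peroxisomal thiolase Acaa1a, with 52.9 ± 3.34 FPKM, lay within the spread of Acat1. Cpt1c, the brain form of carnitine palmitoyltransferase in the endoplasmic reticulum, had 42.7 ± 3.27 FPKM, while the mitochondrial liver form Cpt1a had 7.77 FPKM. The lowest levels were those of the peroxisomal bifunctional enzyme Ehhadh with 1.22 ± 0.25 FPKM, the secreted lipoprotein lipase inhibitor Angptl4 with 1.33 ± 0.459 FPKM, and Ppara with 1.90 ± 0.65 FPKM. Neighbours at this end overlapped within their SD, and all 33 genes passed the filter on low counts in every fit.

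**Figure D1:**
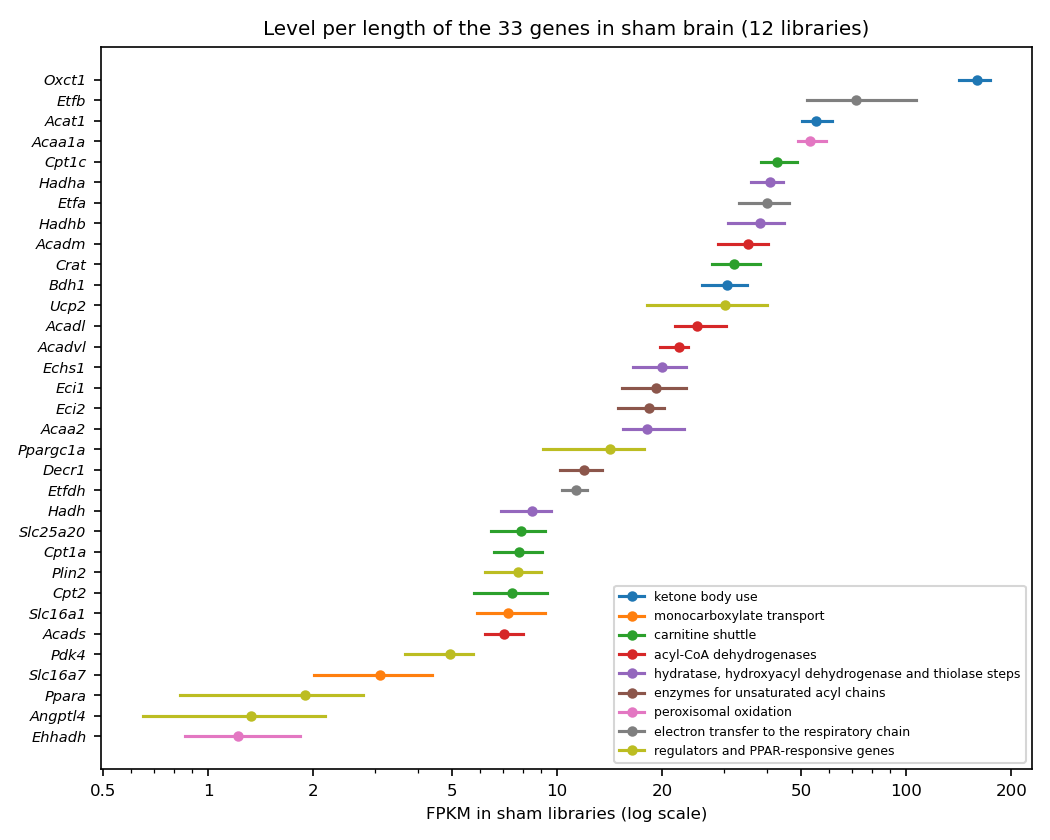
FPKM on a log scale of the 33 genes in sham brain, with colours marking roles. A dot marks each gene's mean over 12 libraries, and a line runs from its lowest to its highest library. The mean of Oxct1, 159 FPKM, lies furthest to the right, and the means of Ehhadh, Angptl4 and Ppara lie below 2 FPKM.

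The promoters of 4 members that changed after stroke are printed here as sequence context for the values that follow. Plin2 has the largest rise after Angptl4 and Ehhadh the largest fall after Slc16a7, while Ucp2 and Slc16a1 were chosen after their values were seen, as genes called higher at 3, 12, 24 and 72 h. Each sequence is the RefSeq promoter of GRCm38.p6, from 250 bases before to 50 bases after the start, 5′ to 3′ on the gene's strand. Capitals mark matches, on either strand, to AGGTCA, the nuclear receptor sequence that is repeated in PPAR binding elements, or to ACGTG, the core of hypoxia response elements, which is also contained in CACGTG. Plin2 (chr4:86670010-86670309, minus strand) holds AGGTCA on the opposite strand at position -218 and CACGTG at -4, Slc16a1 (chr3:104638414-104638713, plus strand) holds CACGTG at -200 and ACGTG at 21, and Ucp2 (chr7:100493108-100493407, plus strand) and Ehhadh (chr16:21787785-21788084, minus strand) hold none of the searched motifs in this window.
Plin2: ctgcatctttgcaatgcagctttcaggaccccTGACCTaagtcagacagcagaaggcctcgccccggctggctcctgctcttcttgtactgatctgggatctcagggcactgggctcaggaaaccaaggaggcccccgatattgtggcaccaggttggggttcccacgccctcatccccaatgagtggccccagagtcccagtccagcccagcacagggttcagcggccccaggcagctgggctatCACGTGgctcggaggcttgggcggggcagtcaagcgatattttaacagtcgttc
Slc16a1: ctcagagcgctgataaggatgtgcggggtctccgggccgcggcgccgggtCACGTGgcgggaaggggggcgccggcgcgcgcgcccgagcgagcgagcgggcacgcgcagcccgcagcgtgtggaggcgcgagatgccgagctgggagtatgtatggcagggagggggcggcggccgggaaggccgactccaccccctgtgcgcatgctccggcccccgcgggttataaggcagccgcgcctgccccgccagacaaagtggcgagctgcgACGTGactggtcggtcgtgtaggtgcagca
Ucp2: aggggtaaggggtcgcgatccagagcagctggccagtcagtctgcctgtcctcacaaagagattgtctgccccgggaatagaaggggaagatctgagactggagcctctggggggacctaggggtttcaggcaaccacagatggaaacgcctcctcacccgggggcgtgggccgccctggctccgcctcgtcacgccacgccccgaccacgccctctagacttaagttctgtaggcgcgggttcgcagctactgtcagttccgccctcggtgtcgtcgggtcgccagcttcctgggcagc
Ehhadh: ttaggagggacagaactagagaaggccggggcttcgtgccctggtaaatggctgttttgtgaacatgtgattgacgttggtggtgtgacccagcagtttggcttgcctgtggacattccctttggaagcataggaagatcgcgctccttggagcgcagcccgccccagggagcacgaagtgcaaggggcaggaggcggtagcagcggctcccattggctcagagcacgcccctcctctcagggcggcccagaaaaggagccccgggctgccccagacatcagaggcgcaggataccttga

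A promoter was found for 27 of the 33 members, with 28 entries, and for neither Angptl4 nor Slc16a7. The median GC content of the members' promoters was 60.7%, against 52.7% over all 32851 promoters of the table. Of the 28 entries 21.4% hold AGGTCA on either strand (Acadm, Acadvl, Cpt1a, Cpt1c, Echs1 and Plin2), against 16.3% of all promoters. ACGTG is in 17.9% (Acadvl, Oxct1, Plin2, Ppargc1a and Slc16a1), against 19.6% of all, and CACGTG in 7.14%, against 7.15%. An exact repeat of AGGTCA after a single spacer base, the consensus form of PPAR elements, is in no member's window (0.0396% of all promoters). Nor is the cyclic AMP response sequence TGACGTCA (1.79% of all). Looser forms of these elements, and sequence outside the window, were not searched. A match describes the letters only.

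Averaged over the regimens, members were called in both directions at 3, 12 and 24 h and only upwards at 72 h. After ischemia alone edgeR called no member at an adjusted p under 0.05 (0.139% of the 17268 genes tested were called), with DESeq2 at 0 as well and 1 member at an unadjusted p below 0.05. At 3 h 8 of 33 were called, 4 higher and 4 lower, where 21.8% of all genes were called, 10.7% higher and 11.1% lower. At 12 h 9 were called, 5 higher and 4 lower (21.6% of all genes, 11.7% higher and 9.82% lower), and at 24 h 13, 7 higher and 6 lower (49.8% of all genes, 25.4% higher and 24.3% lower). At 72 h 16 were called, all 16 higher, while 27.2% of all genes were called, 16.1% higher and 11.0% lower. The members' share was near that of all genes at 3 and 12 h and below it at 24 h. At 72 h it was above that of all genes in the upward direction. The median log2 fold change of the 33 members was -0.09 after ischemia alone, where 25 were negative. It was -0.03 at 3 h, -0.02 at 12 h, 0.04 at 24 h and 0.19 at 72 h, where 29 were positive. The median of all genes stayed between -0.01 and 0.01. The stages share their 12 sham libraries. Of the 46 member and stage pairs that were called, 43 had the same sign within each of the 4 regimens. Bdh1 at 12 h, Acadm at 24 h and Cpt1a at 72 h had it in 3.

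**Figure D2:**
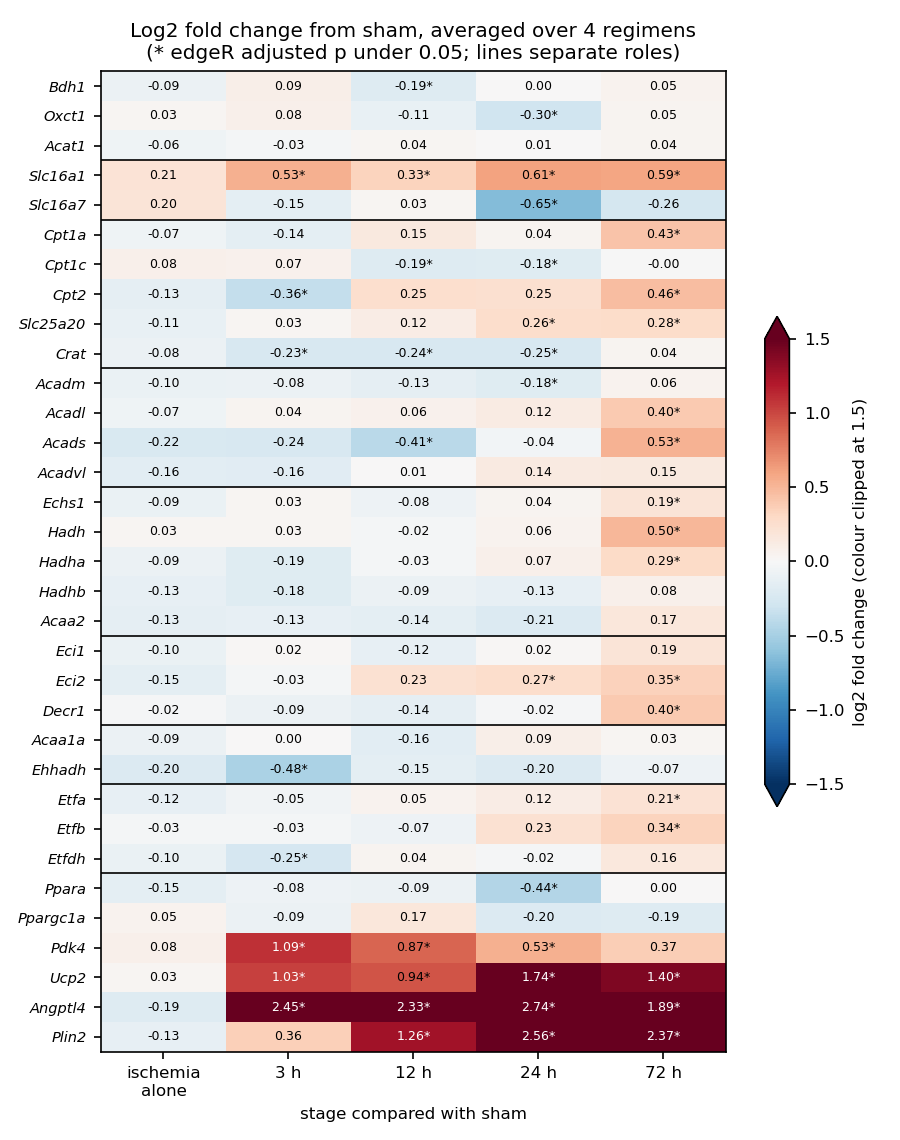
Log2 fold change from sham, averaged over 4 regimens, for the 33 genes (rows, with lines between roles) and 5 stages (columns), with an asterisk at an edgeR adjusted p under 0.05. The regulators and PPAR-responsive genes at the bottom hold the widest changes, and the last column, 72 h, holds 16 asterisks, all for higher levels.

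Plin2 (ENSMUSG00000028494, GRCm38 chr4:86648386-86670060, minus strand) coats intracellular lipid droplets. Its lowest, median and highest levels were 11.6, 44.3 and 77.2 CPM over the 12 libraries at 24 h, against 5.50, 6.69 and 8.23 CPM in sham. All 12 libraries at 24 h lay above every sham library, a 5.90-fold difference (log2 2.56 ± 0.36, SE; edgeR adjusted p = 1.38e-07). The rise had begun by 12 h, at 2.40-fold (log2 1.26 ± 0.35, edgeR adjusted p = 0.00789), with 8 of 12 libraries above every sham library. At 3 h the log2 fold change was 0.36 ± 0.36 (edgeR adjusted p = 0.508). At 72 h the fold was 5.16, and the libraries spread from 6.22 to 174.8 CPM with a median of 14.7 CPM.

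Angptl4 (ENSMUSG00000002289, GRCm38 chr17:33773750-33781830, minus strand), induced by fasting and hypoxia in other tissues, was higher from 3 h on. Its lowest, median and highest levels were 1.95, 9.18 and 25.7 CPM at 3 h, 2.36, 7.66 and 30.7 CPM at 12 h, and 3.34, 8.52 and 34.7 CPM at 24 h, against 0.975, 1.96 and 3.48 CPM in sham. At each of these stages 11 of 12 libraries lay above every sham library. The fold was 5.46 at 3 h (log2 2.45 ± 0.42, edgeR adjusted p = 2.15e-05), 5.05 at 12 h and 6.69 at 24 h (log2 2.74 ± 0.42, edgeR adjusted p = 7.56e-07). At 72 h it was 3.71 and 5 of 12 libraries were above every sham library.

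Ucp2 (ENSMUSG00000033685, GRCm38 chr7:100493337-100502020, plus strand) encodes an inner-membrane carrier of mitochondria that is known from microglia and other immune cells. Its lowest, median and highest levels were 49.8, 104.2 and 245.7 CPM at 24 h, against 21.9, 36.02 and 51.1 CPM in sham. A single library at 24 h reached into the sham range. The fold was 3.34 at 24 h (log2 1.74 ± 0.24, edgeR adjusted p = 9.29e-08), with 2.04 at 3 h (log2 1.03 ± 0.24), a log2 value of 0.94 ± 0.24 at 12 h (edgeR adjusted p = 0.00342) and a fold of 2.64 at 72 h (log2 1.40 ± 0.24). Most reactive astrocyte and activated myeloid markers were called higher at 12, 24 and 72 h, as given above. Of 6 monocyte and macrophage markers 5 were higher at 24 h and 5 at 72 h. Their sums were 24.64 to 100.9 CPM at 24 h and 11.85 to 235.5 CPM at 72 h, against 6.316 to 13.03 CPM in sham. Of 4 neutrophil markers tested, 4 were higher at 3 h, 2 at 12 h, 4 at 24 h and 0 at 72 h. Of 6 homeostatic microglia markers 4 were lower at 12 h and 4 higher at 72 h. The part of cell makeup in the folds of Plin2, Angptl4 and Ucp2 was not tested.

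Pdk4 (ENSMUSG00000019577, GRCm38 chr6:5483351-5496309, minus strand), the kinase that shuts pyruvate dehydrogenase when fatty acids are burnt, followed another course. Its lowest, median and highest levels were 12.8, 21.7 and 29.4 CPM at 3 h, against 7.71, 9.70 and 11.2 CPM in sham, with no overlap between the 12 libraries of each. The difference was widest at 3 h, 2.13-fold (log2 1.09 ± 0.17, edgeR adjusted p = 3.6e-06), then 1.83-fold at 12 h and 1.45-fold at 24 h (log2 0.53 ± 0.17, edgeR adjusted p = 0.00805). At 72 h the log2 value of 0.37 ± 0.17 did not pass (edgeR adjusted p = 0.103). Of the regulators, Ppara was lower at 24 h (log2 -0.44 ± 0.17, edgeR adjusted p = 0.0247), with a median of 1.88 CPM, against 3.08 CPM in sham. Ppargc1a, the coactivator of mitochondrial biogenesis, passed at no stage of the average, with -0.20 at 24 h and -0.19 at 72 h on the log2 scale. Its calls within IF12 are given below.

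**Figure D3:**
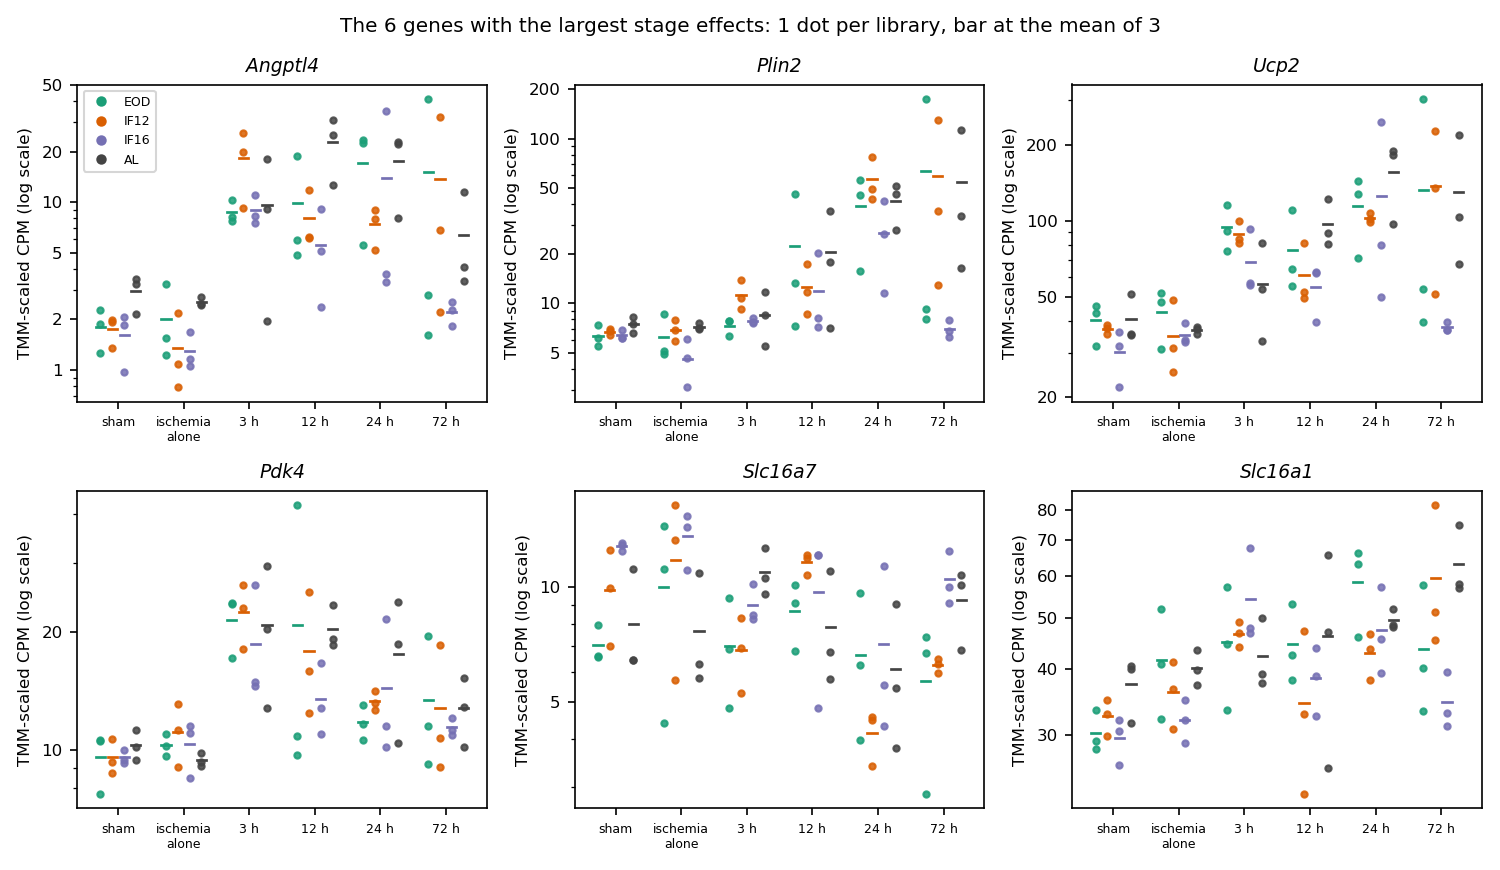
TMM-scaled CPM on a log scale of the 6 genes with the largest stage effects, 1 dot per library coloured by regimen, with a bar at each group's mean of 3. Plin2 at 24 h lies between 11.6 and 77.2 CPM, above every sham library, while its dots at 72 h spread from 6.22 to 174.8 CPM.

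Of the 3 enzymes of ketone body use, Oxct1 and Bdh1 passed at a single stage each in the average over regimens and Acat1 at none. Oxct1 had 134.6, 180.4 and 251.5 CPM (lowest, median and highest) at 24 h, against 196.4, 224.2 and 254.3 CPM in sham, and 10 of 12 libraries lay below every sham library. It was lower at 24 h (log2 -0.30 ± 0.08, edgeR adjusted p = 0.000836). Bdh1 was lower at 12 h (log2 -0.19 ± 0.07, edgeR adjusted p = 0.0347), and Acat1 stayed between -0.06 and 0.04 on the log2 scale at the 5 stages. Neuronal markers also moved at 24 h, when 6 of 8 were lower than in sham with a list median of -0.45 on the log2 scale. What share of the Oxct1 difference goes with them was not tested.

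The transporters moved apart. Slc16a1 (ENSMUSG00000032902, GRCm38 chr3:104638668-104658462, plus strand) encodes MCT1, the form of endothelium and glia, which carries lactate and ketone bodies. Its lowest, median and highest levels were 38.0, 47.3 and 66.1 CPM at 24 h, against 26.3, 31.8 and 40.6 CPM in sham, and 10 of 12 libraries lay above every sham library. It was higher at 3 h (1.45-fold, edgeR adjusted p = 0.000551), 12 h (log2 0.33 ± 0.12, edgeR adjusted p = 0.0346), 24 h (1.52-fold, edgeR adjusted p = 2.65e-05) and 72 h (1.51-fold, edgeR adjusted p = 8.66e-05). Of 5 endothelial markers 3 were higher at 24 h and 3 at 72 h, with list medians of 0.69 and 0.49 on the log2 scale and sums of 208.4 to 635.2 CPM at 24 h and 172.3 to 546.4 CPM at 72 h, against 186.3 to 258.9 CPM in sham, and their part in the Slc16a1 rise was not tested. Slc16a7 (ENSMUSG00000020102, GRCm38 chr10:125219270-125389465, minus strand), which encodes the neuronal transporter MCT2, had 3.4, 5.004 and 11.4 CPM at 24 h, against 6.44, 8.97 and 13.1 CPM in sham. It was lower at 24 h, at 0.638 times the sham level (log2 -0.65 ± 0.19, edgeR adjusted p = 0.00375), with 9 of 12 libraries below every sham library. At 72 h its log2 value was -0.26 ± 0.19 (edgeR adjusted p = 0.303).

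All 5 members grouped here under the carnitine shuttle passed at some stage, Crat and Cpt1c with lower levels, Slc25a20 and Cpt1a with higher levels, and Cpt2 with both. Crat, the acetyltransferase that buffers acetyl-CoA against carnitine, had 33.6, 38.0 and 42.4 CPM (lowest, median and highest) at 3 h, against 40.4, 44.1 and 52.8 CPM in sham. It was lower at 3, 12 and 24 h by 0.23 to 0.25 on the log2 scale (edgeR adjusted p = 0.000517, 0.000476 and 7.81e-05), with 11, 10 and 8 of 12 libraries below every sham library, while its log2 value at 72 h was 0.04. Cpt1c, grouped by family although it lies in the endoplasmic reticulum, was lower at 12 h (log2 -0.19 ± 0.06) and 24 h (log2 -0.18 ± 0.06, edgeR adjusted p = 0.011). Cpt2, the inner-membrane transferase, was lower at 3 h (log2 -0.36 ± 0.14, edgeR adjusted p = 0.0478), a call lost in 17 of 24 fits without a single library and with no filter on low counts, and higher at 72 h (log2 0.46 ± 0.13, edgeR adjusted p = 0.00784). Slc25a20, the carnitine and acylcarnitine carrier, was higher at 24 h (log2 0.26 ± 0.09) and 72 h (log2 0.28 ± 0.09, edgeR adjusted p = 0.0133), and Cpt1a at 72 h (log2 0.43 ± 0.12, edgeR adjusted p = 0.00444).

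Most enzymes of the oxidation spiral did not pass before 72 h. Among the acyl-CoA dehydrogenases, Acads, the short-chain form, had 5.08, 6.59 and 8.004 CPM (lowest, median and highest) at 12 h, against 7.58, 8.68 and 9.82 CPM in sham, with 11 of 12 libraries below every sham library (log2 -0.41 ± 0.12, edgeR adjusted p = 0.0146). At 72 h Acads was higher (log2 0.53 ± 0.12, edgeR adjusted p = 0.000968), with 7.45, 11.2 and 22.6 CPM. Acadl, the long-chain form, was higher at 72 h (log2 0.40 ± 0.10, edgeR adjusted p = 0.00159). Acadm, the medium-chain form, was lower at 24 h (log2 -0.18 ± 0.07, edgeR adjusted p = 0.0397), and the very-long-chain form Acadvl passed at no stage.

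Of the 5 members for hydration, the following dehydrogenation and thiolysis, 3 were higher at 72 h and none passed earlier. Hadh, the short-chain hydroxyacyl dehydrogenase, had 22.5, 32.3 and 50.6 CPM at 72 h, against 19.1, 23.6 and 27.6 CPM in sham, and 10 of 12 libraries lay above every sham library (log2 0.50 ± 0.09, edgeR adjusted p = 3.33e-05). Hadha, the α subunit of the mitochondrial trifunctional protein, was higher (log2 0.29 ± 0.07, edgeR adjusted p = 0.00232), while its β subunit Hadhb was at 0.08 ± 0.08 (edgeR adjusted p = 0.503). The hydratase Echs1 was at 0.19 ± 0.07 (edgeR adjusted p = 0.0467) and the thiolase Acaa2 at 0.17 ± 0.11 (edgeR adjusted p = 0.249). Of the 3 enzymes for unsaturated chains, the isomerase Eci2 was higher at 24 h (log2 0.27 ± 0.09) and 72 h (log2 0.35 ± 0.09, edgeR adjusted p = 0.00268). The dienoyl-CoA reductase Decr1 was higher at 72 h (log2 0.40 ± 0.09, edgeR adjusted p = 0.000461), and Eci1 at no stage.

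Averaged over the regimens, neither of the 2 members grouped here under peroxisomal oxidation, Ehhadh and Acaa1a, was called higher at any stage. Ehhadh (ENSMUSG00000022853, GRCm38 chr16:21761287-21787807, minus strand) had 1.75, 2.47 and 3.58 CPM (lowest, median and highest) at 3 h, against 2.68, 3.80 and 5.28 CPM in sham, and 7 of 12 libraries lay below every sham library. It was lower at 3 h (log2 -0.48 ± 0.13, edgeR adjusted p = 0.00465) and passed at no other stage of the average. Acaa1a kept within 0.16 of sham on the log2 scale in the average, and reads from its close copy Acaa1b may be split between them in an uncertain way. Within IF12 Acaa1a was called at 24 h, with 80.6, 89.7 and 77.5 CPM, against 62.1, 66.9 and 64.6 CPM in sham. In the electron transfer system Etfdh, the membrane oxidoreductase that passes electrons to ubiquinone, was lower at 3 h (log2 -0.25 ± 0.07, edgeR adjusted p = 0.00369). The flavoprotein subunits Etfa (log2 0.21 ± 0.08, edgeR adjusted p = 0.04) and Etfb (log2 0.34 ± 0.13, edgeR adjusted p = 0.0403) were higher at 72 h.

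The 72 h values rest on unequal libraries. Plin2 had 9.28, 175 and 8.04 CPM in EOD replicates 1, 2 and 3, 6.22, 6.83 and 7.93 CPM in IF16, 12.9, 129 and 36.6 CPM in IF12, and 16.4, 33.9 and 113 CPM in AL. Angptl4 had 2.78, 41.2 and 1.62 CPM in the same EOD replicates, 1.83, 2.53 and 2.28 CPM in IF16, 2.22, 32.1 and 6.80 CPM in IF12, and 4.12, 3.402 and 11.5 CPM in AL. Ucp2 had 53.8, 303 and 39.8 CPM in EOD, 37.0, 39.7 and 36.9 CPM in IF16, 51.4, 226 and 135 CPM in IF12, and 67.2, 103 and 219 CPM in AL. The same libraries were high for all 3 genes, namely EOD replicate 2, IF12 replicate 2 and AL replicate 3, and the IF16 libraries were among the lowest. The summed reactive astrocyte markers were 1253, 7087 and 411.1 CPM in EOD, 683.5, 711 and 489.6 CPM in IF16, 2794, 8304 and 3886 CPM in IF12, and 3102, 3108 and 4859 CPM in AL, so they peaked in those same libraries. Without EOD replicate 2 the log2 fold change at 72 h was 1.64 for Plin2, 1.19 for Angptl4 and 1.03 for Ucp2. Of the 16 members 10 were then called, the lost ones being Cpt1a, Cpt2, Slc25a20, Echs1, Etfa and Etfb, and without IF12 replicate 2 alone 12 were called, without the last 4 of these. Without EOD replicate 2 and IF12 replicate 2 together, 7 members stayed called higher (Plin2, Ucp2, Slc16a1, Hadh, Acads, Decr1 and Acadl), where 13.5% of all genes were called. Plin2 was then at 1.33 ± 0.28 (edgeR adjusted p = 0.000493) and Angptl4 at 0.79 ± 0.36 (edgeR adjusted p = 0.15), while 29 of 33 members were still positive with a median of 0.15.

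Within single regimens the number of calls differed widely, as it did over all genes. EOD had 1 call in its 5 contrasts, Slc16a1 at 24 h (log2 0.94 ± 0.24, edgeR adjusted p = 0.0341), where 5.72% of its genes were called. IF16 had 8, with 4 at 3 h (8.62% of genes) and 4 at 24 h (16.5% of genes). At 3 h these were Angptl4 (log2 2.45), Pdk4 (0.97), Slc16a1 (0.88) and Crat (-0.37), and at 24 h Angptl4 (3.10), Ucp2 and Plin2 (2.07 each) and Slc16a1 (0.69). Without a single library the 3 h call was lost in 12 of 18 fits for Angptl4, 9 for Pdk4, 5 for Crat and 1 for Slc16a1. The 24 h call was lost in 3 for Angptl4, 1 for Slc16a1 and 0 for Ucp2 and Plin2.

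IF12 had 31 calls, with 7 at 3 h (29.4% of genes), 13 at 24 h (40.7%) and 11 at 72 h (24.5%). At 3 h its widest changes were those of Angptl4 (log2 3.38 ± 0.71, edgeR adjusted p = 0.00312), Ucp2 (1.24), Pdk4 (1.23) and, downwards, Ehhadh (-0.79). At 24 h Plin2 (3.08), Angptl4 (2.07) and Ucp2 (1.47) were higher, while Slc16a7 (log2 -1.24 ± 0.30, edgeR adjusted p = 0.00434), Ehhadh (-0.79) and Ppara (-0.78) were lower. At 72 h Plin2 (3.13), Angptl4 (2.94), Ucp2 (1.87), Acads (0.86), Slc16a1 (0.85) and Hadh (0.58) were higher. Of the 11 calls at 72 h 10 were higher and 1, Ppargc1a, was lower. Ppargc1a was also called lower at 3 and 24 h. It had 29.6, 27.2 and 23.8 CPM at 72 h, against 37.9, 42.0 and 39.0 CPM in sham. Without a single library its 3 h call was lost in 5 of 18 fits, and its 24 h and 72 h calls in 0. AL had 6 calls, namely Angptl4 at 12 h (log2 2.95 ± 0.64; 1.60% of genes) and 24 h (2.57), Plin2 at 24 h (2.49; 7.06% of genes) and 72 h (2.86; 5.12% of genes), and Ucp2 at 24 h (1.94) and 72 h (1.66).

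In the other contrasts within a regimen edgeR called no member. After ischemia alone 0% of genes were called in EOD and AL, 0.0122% in IF16 and 0.0487% in IF12, with no member at an unadjusted p below 0.05 and 0 by DESeq2. At 3 h 0.0548% of genes were called in EOD and 0.0365% in AL, with 4 and 9 members at an unadjusted p below 0.05. At 12 h 0.0609% were called in EOD, 0.0856% in IF16 and 0.0122% in IF12, with 5, 13 and 6 such members, and at 72 h 0% in EOD and 0.483% in IF16, with 7 and 3. DESeq2 called 1 member in these 3 h, 12 h and 72 h contrasts, in EOD at 72 h. A gene that passed in a single regimen is not shown by this to differ between regimens.

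Of 73 further genes of the pathway, 71 were tested, and 12 were higher and 4 lower at 3 h, 15 and 7 at 12 h, 22 and 12 at 24 h, and 16 and 3 at 72 h. Of all genes 10.7% were called higher and 11.1% lower at 3 h, 11.7% and 9.82% at 12 h, 25.4% and 24.3% at 24 h, and 16.1% and 11.0% at 72 h. The widest changes were those of genes near 0 in sham. Hcar2, the receptor for β-hydroxybutyrate on myeloid cells, had 0.27, 2.89 and 6.92 CPM (lowest, median and highest) at 24 h, against 0, 0.0458 and 0.205 CPM in sham (edgeR adjusted p = 4.76e-10). Fgf21, a fasting hormone of the liver, had 0, 0.697 and 10.3 CPM at 24 h, against 0, 0 and 0.131 CPM in sham (edgeR adjusted p = 4.41e-06). Plin4, another droplet coat protein, was widest at 12 h (log2 2.59 ± 0.36, edgeR adjusted p = 1.67e-06), and the fatty acid receptor Cd36 was higher at 24 h (log2 1.77 ± 0.29). Fabp4 and Fabp7, fatty acid binding proteins, were higher at 72 h (log2 2.14 and 1.34).

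Fasting was compared with AL over the 6 stages together. In EOD and IF12 no member was called (0 of 16898 and 0 of 16901 genes by edgeR, 0% of each, and 0 members by DESeq2), with 3 and 2 members at an unadjusted p below 0.05. Ppara was in both of these sets, at 0.35 ± 0.16 in EOD and 0.38 ± 0.12 in IF12 on the log2 scale. In IF16 2 of 33 members were called, where 0.682% of 16861 genes were called, 0.219% higher and 0.463% lower, with Ppara higher (log2 0.55 ± 0.14, edgeR adjusted p = 0.0494) and Plin2 lower (log2 -0.90 ± 0.22, edgeR adjusted p = 0.0484). Both lie close to the threshold.

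Ppara had a lowest, median and highest level of 1.65, 3.28 and 4.20 CPM over the 18 IF16 libraries, against 1.08, 2.11 and 3.71 CPM over the 18 AL libraries. It was higher in IF16 at 6 of 6 stages, by 0.04 to 1.15 on the log2 scale. The groups were apart in sham, with 4.20, 4.16 and 3.46 CPM in IF16 and 1.33, 1.84 and 2.07 CPM in AL, and after ischemia alone, with 2.79, 2.43 and 3.72 CPM in IF16 and 2.32, 1.47 and 1.18 CPM in AL, and again at 72 h, with 3.61, 3.39 and 3.42 CPM in IF16 and 2.82, 2.23 and 2.80 CPM in AL. At 3, 12 and 24 h they overlapped, with 3.12, 3.17 and 2.03 CPM in IF16 and 3.06, 3.71 and 1.28 CPM in AL at 3 h.

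Plin2 had a lowest, median and highest level of 3.09, 7.39 and 41.9 CPM over the IF16 libraries, against 5.50, 10.1 and 113 CPM over the AL libraries. It was lower in IF16 at 6 of 6 stages, by 0.14 to 2.94 on the log2 scale. In sham the levels were 6.18, 6.93 and 6.17 CPM in IF16 and 8.23, 7.55 and 6.62 CPM in AL, and at 24 h 41.9, 26.4 and 11.6 CPM in IF16 and 28.0, 46.2 and 52.0 CPM in AL. At 72 h every IF16 library lay below every AL library, and the difference of the 72 h response between IF16 and AL was -2.75 ± 0.76 on the log2 scale, which did not pass (edgeR adjusted p = 0.102, with 0.457% of genes called). Angptl4 was also lower in IF16 at 6 of 6 stages, with an average of -0.97 ± 0.29 that missed the threshold (edgeR adjusted p = 0.0719), as did Ucp2 at -0.52 ± 0.17 (edgeR adjusted p = 0.088) and Ppargc1a at 0.26 ± 0.08 (edgeR adjusted p = 0.0745). Reactive astrocyte markers were lower in IF16 too, with 2 of 7 called, a list median of -0.94 and sums of 154.4 to 3209 CPM in IF16 and 228 to 4859 CPM in AL. Of 7 activated myeloid markers 1 was lower (list median -0.67, sums of 1972 to 3360 CPM in IF16 and 1713 to 4189 CPM in AL), as was 1 of 5 endothelial markers (list median -0.28, sums of 172.3 to 635.2 CPM in IF16 and 210.7 to 420 CPM in AL). The medium spiny neuron markers had a list median of 0.64 with 0 of 8 called and sums of 196.4 to 2401 CPM in IF16 and 240.5 to 2758 CPM in AL. The part of these cell types in the Plin2 and Ppara differences was not tested. With each of the 36 libraries left out in turn, Plin2 passed in 12 fits (log2 -1.01 to -0.70) and Ppara in 10 (log2 0.49 to 0.60).

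**Figure D4:**
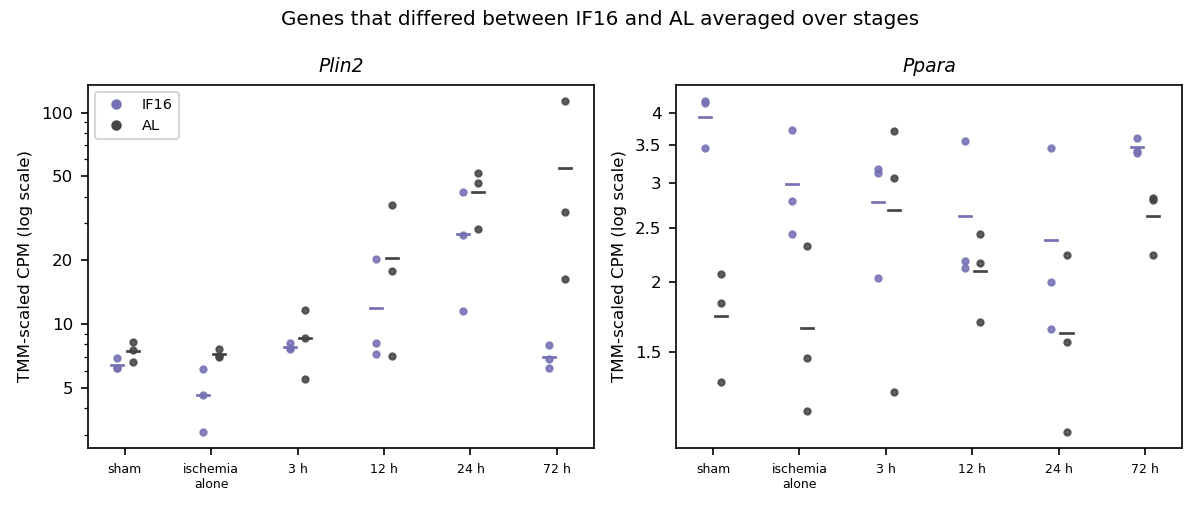
TMM-scaled CPM on a log scale of the genes called between IF16 and AL averaged over stages, 1 dot per library with a bar at the mean of 3, by stage. Ppara is apart in sham, after ischemia alone and at 72 h and overlaps at 3, 12 and 24 h, and Plin2 is furthest apart at 72 h, with IF16 at 6.22 to 7.93 CPM and AL at 16.4 to 113 CPM.

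Whether the response to stroke itself differed between a fasting regimen and AL was tested over the 5 stages at once. EOD had 0 of 33 members (0 genes by edgeR, no member at an unadjusted p below 0.05, and 0 by DESeq2) and IF16 had 0 (0.273% of genes, 10 members at an unadjusted p below 0.05, 1 by DESeq2). IF12 had 4 of 33, where 14.9% of 16901 genes were called: Bdh1 (edgeR adjusted p = 0.00866), Ppargc1a (edgeR adjusted p = 0.0124), Slc25a20 (edgeR adjusted p = 0.0172) and Eci1 (edgeR adjusted p = 0.0327). The share of members called was thus near that of all genes. The differences lay mainly at 3 h, where 11.5% of all genes differed in their response.

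Bdh1 had 54.2, 58.8 and 63.6 CPM in IF12 at 3 h, against 33.6, 38.9 and 34.4 CPM in AL at 3 h. In sham it had 43.8, 37.3 and 36 CPM in IF12 and 49.0, 47.7 and 40.8 CPM in AL, where the regimens overlapped and no gene was called between them. The response at 3 h differed by 0.96 ± 0.20 on the log2 scale (edgeR adjusted p = 0.013), and at 3 h itself Bdh1 was higher in IF12 by 0.73 ± 0.15 (edgeR adjusted p = 0.032, with 8.75% of genes called). An overlapping gene lies on the opposite strand of Bdh1, and whether counting used strand is not stated.

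Slc25a20 had 17.7, 19.7 and 20.6 CPM in IF12 at 3 h, against 12.8, 13.4 and 9.76 CPM in AL, with no overlap. In sham it had 16.2, 12.8 and 12.8 CPM in IF12 and 17.5, 14.5 and 13.1 CPM in AL. The response differed by 0.80 ± 0.22 (edgeR adjusted p = 0.0249), and the level at 3 h by 0.69 ± 0.18 (edgeR adjusted p = 0.0396).

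Ppargc1a went the other way, with 31.8, 30.6 and 29.9 CPM in IF12 at 3 h, against 36.2, 42.2 and 37.6 CPM in AL, and with 37.9, 42.0 and 39.0 CPM in IF12 and 25.3, 35.3 and 34.7 CPM in AL in sham. Its response at 3 h differed by -0.65 ± 0.21 (edgeR adjusted p = 0.042). At 24 h it had 21.5, 24.2 and 27.1 CPM in IF12, against 38.9, 34.7 and 30.5 CPM in AL, again without overlap, and the difference of the response, -0.84 ± 0.21, did not pass at that stage alone (edgeR adjusted p = 0.13, with 0.0118% of genes called). Eci1 had 27.0, 22.6 and 25.6 CPM in IF12 at 3 h, against 19.1, 17.2 and 15.8 CPM in AL, and its difference at 3 h, 0.70 ± 0.25, missed the threshold (edgeR adjusted p = 0.0642).

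At 3 h the marker lists also differed between these groups. The summed medium spiny neuron markers were 662.5 to 919.9 CPM in IF12 and 1464 to 1587 CPM in AL, the reactive astrocyte markers 610 to 833.2 CPM in IF12 and 228 to 490.8 CPM in AL, and the activated myeloid markers 3295 to 3896 CPM in IF12 and 1800 to 2372 CPM in AL. The activated myeloid sum need not stand for most of its list, as its course after stroke showed. The mitochondrial share of counts also lay apart at 3 h, at 4.98, 4.24 and 3.75% in IF12 and 2.72, 2.82 and 2.74% in AL. In sham it was 4.37, 2.48 and 2.96% in IF12 and 4.29, 3.37 and 2.91% in AL. The part of the markers and of this share in the differences of Bdh1, Slc25a20, Ppargc1a and Eci1 was not tested. With a replicate number left out of every group, Bdh1 passed only without replicate 2, Eci1 likewise, and Ppargc1a and Slc25a20 in none of the 3 fits, and in the fit of 72 libraries Ppargc1a and Eci1 lost their calls. With each of the 36 libraries left out in turn, Bdh1 and Ppargc1a passed in all 36 fits, Slc25a20 in 34 (not without AL replicate 3 or IF12 replicate 3 of 3 h) and Eci1 in 25. Within single stages edgeR called no member in EOD (0.277% of genes at 3 h and 0% at the other stages) or in IF16 (0% at each stage), although 11 members in EOD at 3 h and 16 in IF16 in sham had an unadjusted p below 0.05, and DESeq2 called 0 in EOD and 7 in IF16. IF12 had Bdh1 and Slc25a20 at 3 h, calls that both lost when any IF12 library, AL replicate 1 or AL replicate 3 of 3 h was left out. At the other stages of IF12 0% of genes and no member were called, with up to 4 members at an unadjusted p below 0.05 and 0 by DESeq2.

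**Figure D5:**
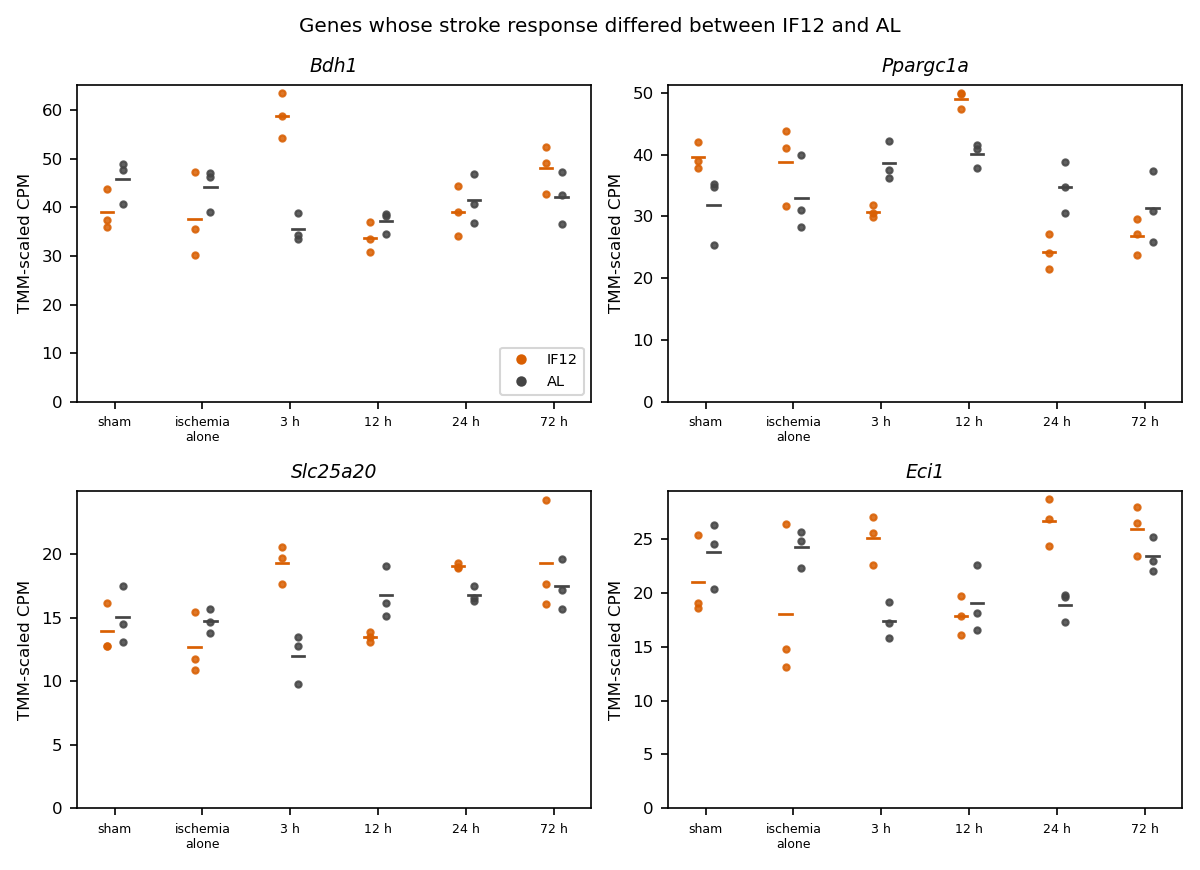
TMM-scaled CPM on a linear scale of the 4 genes whose stroke response differed between IF12 and AL, 1 dot per library with a bar at the mean of 3, by stage. At 3 h Bdh1, Slc25a20 and Eci1 are higher in IF12 than in AL and Ppargc1a is lower, without overlap of the 3 libraries of each regimen.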

How the data were processed

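Whole-number counts per gene and FPKM values were deposited for each library by the authors, and the FPKM equalled the counts divided by gene length and library total (largest relative deviation 1.8e-07 over 1453690 values). The tools named in the submitters' processing notes are CASAVA, TopHat2 and DESeq2, with the build GRCm38/mm10. The sources used here give no tool version, annotation, counting rule or strand setting. RNA came from frozen tissue, per the labels' protocols. Symbols and coordinates came from GENCODE M21 of GRCm38, which named 34490 of the 35275 genes, and 6816 genes had no read. Of the members, 11 overlap another annotated gene, 10 of them on the opposite strand and 1 on the same strand, and without the counting rule such reads cannot be told apart.

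Counts were tested in R 4.3.3 with edgeR 4.0.16 (TMM scaling, filterByExpr, quasi-likelihood F test), with Benjamini-Hochberg adjusted p under 0.05 over all genes tested. Stage contrasts averaged over regimens used 72 libraries, contrasts within a regimen 18, averaged fasting contrasts and interactions 36, and contrasts within a stage 12. DESeq2 1.42.0, other scaling, no filter, a replicate block, a fit of 72 libraries throughout and leaving out libraries were alternatives. CPM are counts scaled to library size with TMM factors, and an SE is the log2 fold change divided by the square root of F. On simulated counts for 24 h, changes of 1 and 2 on the log2 scale were recovered in 97.2% and 100% of genes in the averaged contrast and in 59.8% and 91.7% within AL. Unchanged genes were called 8 times in the averaged contrast and 11 times within AL. The changed genes lay above 1 CPM. Changes below 1, as for many called members, were not simulated.

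The members and gene lists were chosen with earlier results of these data known. Every called member is named in averaged contrasts, up to 6 by size within a regimen or stage, and library values are given for the 6 members with the largest stage effects and for members called in fasting averages or interactions. Promoters were planned for the 2 largest rises and the 2 largest falls. Within groups, 72 pairs of libraries differed with a chi-square of 5.48 to 192.8 per gene, and all were kept.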

Additional observations from a re-analysis of the deposited data

Results flagged for a closer look

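The response to stroke differed between IF12 and AL for 4 members in a test of the difference itself over 5 stages: Bdh1, the first enzyme of ketone use (edgeR adjusted p = 0.00866), Ppargc1a, the coactivator of mitochondrial biogenesis (edgeR adjusted p = 0.0124), Slc25a20, the acylcarnitine carrier (edgeR adjusted p = 0.0172), and Eci1, an isomerase for unsaturated chains (edgeR adjusted p = 0.0327). For Bdh1, Slc25a20 and Eci1 the 3 h value relative to sham was higher in IF12 than in AL, and for Ppargc1a it was lower. The 4 are 4 of 33 members, where 14.9% of the 16901 genes tested were called. Without replicate 1 of every group 0 members were called, and without replicate 2 there were 2. Without replicate 3 of every group 0 members and 0 genes were called.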

How the results depend on the processing

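The averaged stage contrasts kept the sign of all 46 called values under every alternative. Leaving out libraries gave 2 to 9 members at 3 h, 0 to 10 at 12 h, 9 to 14 at 24 h and 4 to 18 at 72 h, the lowest counts coming without replicate 3 of every group at 3 and 12 h and without replicate 2 at 72 h. With single libraries left out of the averaged contrasts, which like the 72 h fit without EOD and IF12 replicates 2 (7 members) and the single-library fits of the IF16 average and IF12 interaction was chosen after seeing the data, the ranges were 7 to 9, 6 to 10, 11 to 14 and 10 to 18 (10 without EOD 72 h replicate 2, 6 at 12 h without AL 12 h replicate 3). Cpt2 at 3 h was lost in 17 of 24 such fits, and at 72 h Echs1 in 15, Etfb in 13 and Etfa in 11. With no filter on low counts Cpt2, Bdh1 and Slc16a1 (12 h), Echs1, Etfa and Etfb lost their calls. DESeq2 lost none.

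Leaving out libraries, calls within AL (6) ran from 0 to 11, within EOD (1) from 0 to 6, within IF12 (31) from 16 to 36 and within IF16 (8) from 2 to 14. EOD had 8 calls in the fit of 72 libraries, 2 with no filter and 3 with DESeq2. Of the fasting averages, IF16 (2 calls) had 0 in the fit of 72 libraries, 5 with DESeq2 and 0 to 7 with libraries left out. Within stages EOD (0) ran from 0 to 1, IF12 (2) from 0 to 7 and IF16 (0) from 0 to 13. There DESeq2 gave 7 for IF12 and 7 for IF16, and IF16 had 3 in the fit of 72 libraries and 1 with no filter. The IF12 interaction (4) had 2 in the fit of 72 libraries, 7 with DESeq2 and 0 to 10 with libraries left out. The IF16 interaction had 1 with DESeq2.

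Same-numbered libraries did not vary together in the median (828 pairs, median r = -0.01, 269 pairs above 0.1), and pairs with other numbers had a median r of 0.01. Single same-numbered pairs ran from r = -0.78 to 0.77, and the median cannot show whether some of them shared handling. A replicate block gave 0 calls within EOD, 0 for the IF16 average, 0 for IF12 and 5 for IF16 within stages, and 5 for the IF12 interaction.

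With 3 libraries a group, changes of 1 on the log2 scale were missed in part within a regimen, and genes with few counts, such as Ppara and Ehhadh, have the least precise values. The causes of the lost calls were not tested.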

Other observations

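Further genes around the pathway moved after stroke beside the members. At 24 h the lactate exporter Slc16a3 (MCT4) was higher (log2 1.72 ± 0.31, edgeR adjusted p = 1.39e-05), as were the lipoprotein lipase Lpl (log2 1.06 ± 0.13, edgeR adjusted p = 8.78e-09) and the droplet protein Hilpda, an inhibitor of lipolysis (log2 1.22 ± 0.21, edgeR adjusted p = 4.44e-06). The mitochondrial carrier Ucp3 was lower at 24 h (log2 -1.05 ± 0.19, edgeR adjusted p = 1.56e-05), as were the coactivator Ppargc1b (log2 -0.60 ± 0.13, edgeR adjusted p = 0.000147) and the mitochondrial acetyl-CoA synthetase Acss1 (log2 -0.58 ± 0.11, edgeR adjusted p = 3.53e-05). None of the 71 further genes tested was called by edgeR in the fasting averages over stages.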
